A study of Homo sapiens with 12 samples.

Results

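The 9 genes described here, which the tumour suppressor p53 is known to activate, were followed across 12 RNA-seq libraries of human anaplastic thyroid carcinoma cells, the undifferentiated form of thyroid cancer. They were taken by gene name from the deposited tables of counts and FPKM: MDM2, TP53INP1, BTG2, GADD45A, PLK3, SESN1, ZMAT3, FAS and GDF15, 9 of the 58735 genes listed. All 9 passed the filter on low counts. The cells were KHM-5M treated with GDC-0994, KHM-5M with DMSO, TTA-1 treated with GDC-0994, and TTA-1 with DMSO, with 3 libraries in each of the 4 groups. The labels give KHM-5M the BRAF V600E mutation, which leaves the kinase switched on, and TTA-1 a wild-type BRAF. KHM-5M was cultured in RPMI-1640 and TTA-1 in DMEM, both with fetal bovine serum. GDC-0994 (ravoxertinib) inhibits ERK, the last kinase step below RAS, RAF and MEK, and was given at 1 µM for 24 hours. DMSO, its vehicle, was given for the same time. Each genotype is represented by 1 cell line, so genotype, line and medium cannot be told apart. Nothing in the labels says that the 3 libraries of a group came from separate cultures, so the p-values measure the spread between these libraries, which may be technical.

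In stressed cells p53 binds pairs of a short half-site near its target genes and raises their transcription. MDM2, one of these targets, encodes the ubiquitin ligase that marks p53 for degradation and so closes a negative feedback loop. Other targets arrest the cell cycle, repair DNA, restrain growth signalling or prepare the cell for death. Many of them also answer to other transcription factors, so a change in 1 target does not by itself show a change in p53.

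The total count per library lay between 14952970 and 18389915, and 16218 genes were tested. The thyroid follicular markers TG and SLC5A5 had no count in any KHM-5M library. The summed level of 7 thyroid markers was 120 to 128 CPM (the count scaled to library size by TMM) in KHM-5M with GDC-0994. It was 205 to 222 CPM in KHM-5M with DMSO. PAX8 carried that sum, averaging 120.25 CPM with GDC-0994 and 210.2 CPM with DMSO. In both KHM-5M groups 5 of the 7 averaged below 1 CPM. In TTA-1 that sum was 3.47 to 5.08 CPM with GDC-0994 and 3.35 to 4.69 CPM with DMSO, and 6 of the 7 averaged below 1 CPM. The part of the thyroid markers in the results was not tested. The 4 epithelial markers summed to 1700 CPM or more and the 3 mesenchymal markers to 1160 CPM or more in every library. KRT8 and KRT18 carried the epithelial sum, while group means were 3.45 to 5.69 CPM for EPCAM and 0.0191 to 3.40 CPM for CDH1. The mesenchymal marker FN1 averaged 5505.5 (GDC-0994) and 3904.3 CPM (DMSO) in KHM-5M, but only 2.4 and 1.7 CPM in TTA-1. Neither the 4 blood nor the 3 endothelial markers summed to more than 3.54 CPM in any library. The log2 ratio of a library to the others of its group followed GC content across genes in some libraries, a description over 10966 genes, which are not independent. The correlation was 0.72 in TTA-1 DMSO replicate 1, -0.69 in TTA-1 DMSO replicate 2, 0.59 in KHM-5M GDC-0994 replicate 1 and -0.55 in KHM-5M GDC-0994 replicate 3. Exons of MDM2 (41.4% GC), TP53INP1 (39.5%), SESN1 (41.2%), FAS (42.1%) and ZMAT3 (43.2%) are low in GC, while those of GDF15 (60.2%), PLK3 (59.6%), GADD45A (57.1%) and BTG2 (51.1%) are higher.

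Start-site windows of the 9 genes were searched for the p53 full site, 2 half-sites of 10 bases back to back, allowing 3 mismatches in the 20 bases on either strand. Each window, from RefSeq on GRCh38.p14, runs from 250 bases before a start to 50 bases after it. There were 15 windows for 7 of the 9 genes, and none for TP53INP1 or GADD45A. MDM2, FAS, SESN1 and GDF15 held such a site, against 6.39% of 27305 gene symbols and 5.2% of 35116 windows in the same table. MDM2 had 4 windows and FAS and SESN1 had 3 each, and a gene with more windows has more chances of a match. The GDF15 site lies after its start. The nearest approach was 4 mismatches in BTG2 and ZMAT3 and 5 in PLK3. A match describes letters in the window, and binding by p53 was not measured here. The sequences of MDM2, FAS and SESN1 are shown because these 3 genes hold sites upstream of a start and yet gave 3 different results in KHM-5M. The sites are in capitals. The MDM2 stretch lies at chr12:68808883-68809016 on the plus strand, and its 2 sites, with 2 and 3 mismatches, end 75 and 37 bases before a start. It lies inside the gene, within the span of 7 of the 34 MDM2 transcripts of GENCODE 29, and at most 15 of its bases are exonic in any of them. The FAS stretch lies at chr10:88991304-88991333 on the plus strand and holds 1 site with 2 mismatches, within an exon of at least 1 FAS transcript. The SESN1 stretch lies at chr6:109008989-109009077 on the minus strand, outside the exons of SESN1, and holds 1 site with 3 mismatches.
MDM2: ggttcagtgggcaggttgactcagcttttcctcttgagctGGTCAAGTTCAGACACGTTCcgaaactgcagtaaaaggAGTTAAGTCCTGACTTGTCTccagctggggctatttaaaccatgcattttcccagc
FAS: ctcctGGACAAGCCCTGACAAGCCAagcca
SESN1: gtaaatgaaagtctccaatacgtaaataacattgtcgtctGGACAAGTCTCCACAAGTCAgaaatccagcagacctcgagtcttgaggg

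GDC-0994 did not move the 9 genes in one direction in KHM-5M. TP53INP1, BTG2, ZMAT3 and SESN1 rose, PLK3, FAS and GADD45A fell, and MDM2 and GDF15 were not called. The rises ran from 1.49-fold to 11.9-fold, and the falls left 0.324 to 0.499 of the DMSO level. Of all 16218 genes tested, 24.6% rose and 25.1% fell at an adjusted p below 0.05, so the 4 risen and 3 fallen of 9 stand in a comparison where about as many genes went up as down. The median log2 fold change was 0.42 over the 9 genes and 0.02 over all genes tested. Because these are bulk libraries, a change in the number of cells with a transcript and a change in transcripts per cell cannot be told apart.

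**Figure D1:**
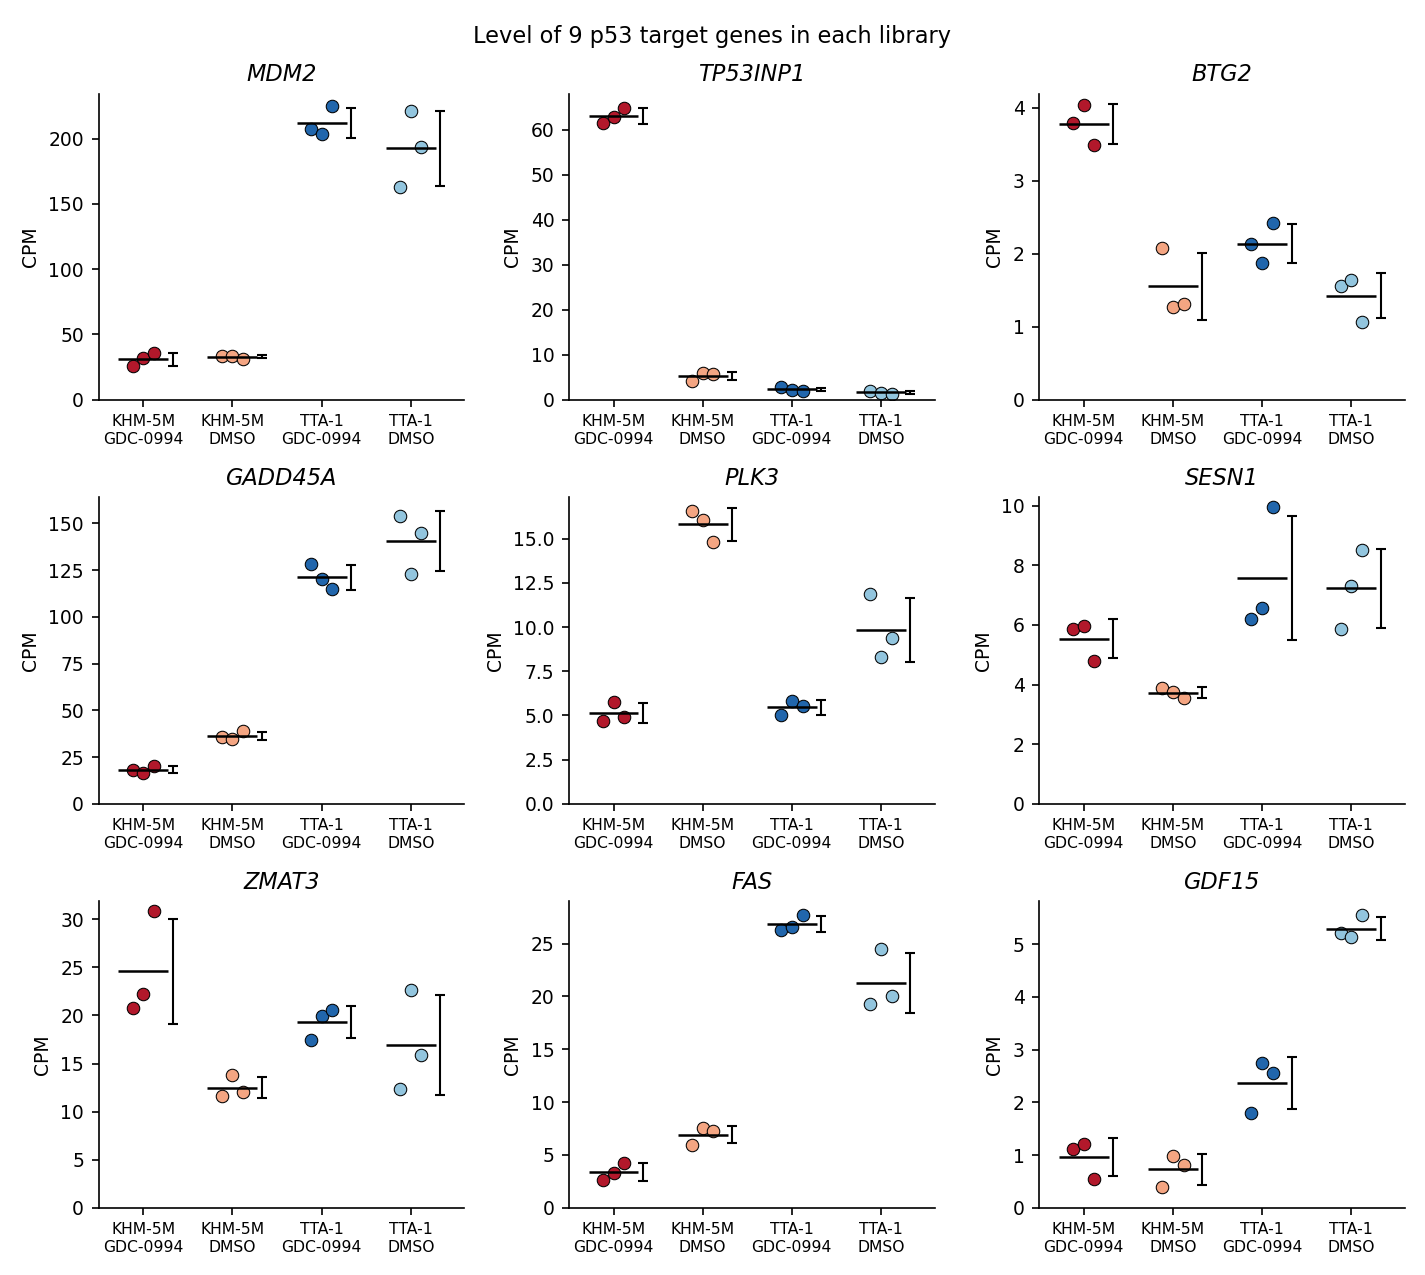
Level of each of the 9 genes in CPM (vertical axes, starting at 0) in each library. Points are the 3 libraries of a group in the order of their replicate numbers, horizontal lines are group means and bars are ± SD. TP53INP1 reaches 61.5 CPM or more only in the KHM-5M GDC-0994 libraries, while MDM2, FAS and GADD45A are high in TTA-1 under both treatments.

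MDM2, on chromosome 12 (68808176 to 68850686 on GRCh38), was measured at 25.6, 32.0 and 35.5 CPM in KHM-5M GDC-0994 replicates 1, 2 and 3, and at 33.9, 33.4 and 31.6 CPM in the DMSO libraries. The ranges overlapped, and the log2 fold change was -0.09 ± 0.12 (SE, adjusted p = 0.564). The treated library lowest in MDM2, replicate 1, was the one with the GC correlation of 0.59, and without it the log2 fold change was 0.03 (adjusted p = 0.833). After each library's trend with gene length and GC was removed it was -0.22 (adjusted p = 0.00666), a fall. That trend was fitted to each library's difference from the mean of all 12 libraries. Its removal here and below therefore also takes out length or GC trends that differ between lines or treatments. In TTA-1 MDM2 stood at 207.7, 203.6 and 224.6 CPM with GDC-0994, against 163.2, 221.1 and 193.2 CPM with DMSO. These ranges also overlapped, at a log2 fold change of 0.14 ± 0.11 (adjusted p = 0.559). The lowest and highest of these DMSO libraries, replicates 1 and 2, are those with GC correlations of 0.72 and -0.69, and with the trend removed the log2 fold change was 0.02 (adjusted p = 0.904). Its exons share 1357 bases with 3 other genes, and the libraries are not stranded. Only 1 of the 3, the carboxypeptidase M gene, had counts, at most 154 in a library, against at least 485 for MDM2.

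The difference in MDM2 lay between the lines. It averaged 32.9 ± 1.21 CPM in KHM-5M DMSO and 192.5 ± 28.9 CPM in TTA-1 DMSO (SD, n = 3 each), a log2 ratio of -2.55 ± 0.12 (adjusted p = 4.79e-12). Under GDC-0994 it averaged 31.0 ± 5.02 CPM in KHM-5M and 212.0 ± 11.1 CPM in TTA-1, a log2 ratio of -2.77 ± 0.12 (adjusted p = 1.23e-12). Every TTA-1 library was above every KHM-5M library, and the difference between the responses of the lines to GDC-0994 was not called (-0.23 ± 0.16, adjusted p = 0.336). That difference was called with the length and GC trend removed (-0.24, adjusted p = 0.0303).

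TP53INP1, which encodes a stress protein that acts with p53 in arrest and cell death and also takes part in autophagy, lies on chromosome 8 (94925972 to 94949411) and had the largest response of the 9 in KHM-5M. Its levels were 61.5, 62.9 and 64.9 CPM in GDC-0994 libraries, against 4.23, 5.89 and 5.79 CPM in DMSO libraries. Every treated library was far above every control, and the log2 fold change was 3.57 ± 0.13 (11.9-fold, adjusted p = 1.26e-12). In TTA-1 TP53INP1 had 2.73, 2.21 and 2.00 CPM with GDC-0994, against 1.89, 1.58 and 1.39 CPM with DMSO. The TTA-1 groups did not overlap, but the log2 fold change of 0.52 ± 0.21 was not called (adjusted p = 0.214), with 103 counts summed over the treated and 75 over the control libraries. The response in KHM-5M exceeded that in TTA-1 by 3.05 ± 0.26 on the log2 scale (adjusted p = 1.26e-07). Under DMSO the gene was already 1.71 ± 0.18 log2 units higher in KHM-5M than in TTA-1 (adjusted p = 2.13e-07), and under GDC-0994 4.76 ± 0.15 higher (adjusted p = 2.56e-14).

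BTG2, an antiproliferative cofactor of mRNA deadenylation on chromosome 1 (203305491 to 203309602), had 3.80, 4.04 and 3.50 CPM in KHM-5M with GDC-0994, against 2.09, 1.27 and 1.32 CPM with DMSO. All 3 treated libraries exceeded all 3 controls, and BTG2 rose by 1.27 ± 0.24 on the log2 scale (adjusted p = 2.86e-04). In TTA-1 it had 2.13, 1.87 and 2.42 CPM with GDC-0994, against 1.56, 1.64 and 1.07 CPM with DMSO. Those groups did not overlap either, at a log2 fold change of 0.59 ± 0.27 that was not called (adjusted p = 0.269). The 2 responses differed by 0.69 ± 0.36 (adjusted p = 0.178), so a difference in response between the lines was not shown for BTG2. It was called with limma on log2(FPKM + 1), at 0.39 on that scale (adjusted p = 0.0248).

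ZMAT3, an RNA-binding zinc finger protein that acts on splicing and transcript stability, lies on chromosome 3 (179017223 to 179072279). It had 20.8, 22.2 and 30.9 CPM in KHM-5M with GDC-0994, against 11.7, 13.8 and 12.03 CPM with DMSO. The groups were apart, and ZMAT3 rose by 0.97 ± 0.19 on the log2 scale (adjusted p = 3.45e-04). In TTA-1 it had 17.5, 19.9 and 20.6 CPM with GDC-0994, against 12.4, 22.6 and 15.9 CPM with DMSO. The 3 DMSO libraries ran across the range of the treated ones, and the log2 fold change was 0.19 ± 0.19 (adjusted p = 0.650). The 12.4 and 22.6 CPM belong to the DMSO libraries with GC correlations of 0.72 and -0.69, and with the length and GC trend removed the log2 fold change was 0.11 (adjusted p = 0.743). The responses of the lines differed by 0.79 ± 0.26 (adjusted p = 0.0346). Leaving out KHM-5M DMSO replicate 1 (0.78, adjusted p = 0.0581), DMSO replicate 3 (0.79, 0.0550), KHM-5M GDC-0994 replicate 3 (0.63, 0.0656) or TTA-1 GDC-0994 replicate 1 (0.75, 0.0563) ended that call, as did limma on log2(FPKM + 1) (0.50, 0.0647).

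SESN1, a sestrin that restrains the growth kinase complex mTORC1, lies on chromosome 6 (108986437 to 109094819). It had 5.85, 5.98 and 4.79 CPM in KHM-5M with GDC-0994, against 3.89, 3.75 and 3.55 CPM with DMSO. The treated libraries were all higher, and SESN1 rose by 0.57 ± 0.20 on the log2 scale (adjusted p = 0.0271). Of the 7 calls in KHM-5M this one had the largest adjusted p. Leaving out DMSO replicate 2 (0.60, adjusted p = 0.0533), DMSO replicate 3 (0.56, 0.0669) or, of the GDC-0994 libraries, replicate 1 (0.53, 0.0713) or 2 (0.52, 0.0872), ended it, as did limma on log2(FPKM + 1) (0.28, 0.0549). In TTA-1 SESN1 had 6.20, 6.55 and 9.95 CPM with GDC-0994, against 5.86, 7.30 and 8.52 CPM with DMSO, 2 overlapping groups (0.06 ± 0.19, adjusted p = 0.912). SESN1 shares 363 exonic bases with an antisense gene that had at most 1 count in a library. The difference between the responses was 0.51 ± 0.28 (adjusted p = 0.199). Without TTA-1 GDC-0994 replicate 3, the library at 9.95 CPM, it was 0.80 (adjusted p = 0.0296).

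PLK3, a polo-like kinase of the stress response that was first described as inducible by growth factors, lies on chromosome 1 (44800225 to 44805990) and fell in both lines. It had 4.69, 5.75 and 4.91 CPM in KHM-5M with GDC-0994, against 16.6, 16.0 and 14.8 CPM with DMSO. All treated libraries lay below all controls, at a log2 fold change of -1.62 ± 0.15 (adjusted p = 9.75e-08). In TTA-1 PLK3 had 5.00, 5.82 and 5.53 CPM with GDC-0994, against 11.9, 8.29 and 9.40 CPM with DMSO. Again the groups were apart, and the log2 fold change was -0.85 ± 0.15 (adjusted p = 0.00434). The log2 effect was more negative in KHM-5M than in TTA-1, at a difference of -0.77 ± 0.21 (adjusted p = 0.0121). This call was lost without TTA-1 GDC-0994 replicate 2 (-0.69, adjusted p = 0.0522). Treated libraries of the lines lay in the same range, at a log2 ratio of KHM-5M over TTA-1 of -0.09 ± 0.16 (adjusted p = 0.618), while under DMSO the ratio was 0.68 ± 0.14 (adjusted p = 2.95e-04). Both ratios between the lines moved with the length and GC trend removed, to -0.90 under GDC-0994 (adjusted p = 1.12e-05) and -0.10 under DMSO (adjusted p = 0.483). PLK3 shares 78 exonic bases with TCTEX1D4, which had at most 7 counts in a library.

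GADD45A, which binds cell cycle and repair proteins and holds cells before mitosis, lies on chromosome 1 (67685061 to 67688338). It had 18.1, 16.4 and 20.01 CPM in KHM-5M with GDC-0994, against 35.7, 34.7 and 38.9 CPM with DMSO. It fell by 1.00 ± 0.10 on the log2 scale (adjusted p = 4.26e-07), to 0.499 of the DMSO level. In TTA-1 it had 128.2, 120.1 and 114.8 CPM with GDC-0994, against 154.1, 122.7 and 145.0 CPM with DMSO. One DMSO library lay among the treated ones, replicate 2 with the GC correlation of -0.69, and the log2 fold change of -0.22 ± 0.09 was not called (adjusted p = 0.238). Without that library it was -0.33 and called (adjusted p = 0.00895). In that fit 2620 of 16678 genes were called in TTA-1, against 556 of 16218 with all libraries. The log2 effect was more negative in KHM-5M than in TTA-1, at a difference of -0.79 ± 0.14 (adjusted p = 3.50e-04).

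FAS, the death receptor on the cell surface that recruits FADD and caspases, lies on chromosome 10 (88990582 to 89015785). It had 2.58, 3.26 and 4.23 CPM in KHM-5M with GDC-0994, against 5.98, 7.56 and 7.22 CPM with DMSO. The groups were apart and the log2 fold change was -1.05 ± 0.17 (adjusted p = 9.19e-05). In TTA-1 FAS had 26.3, 26.6 and 27.7 CPM with GDC-0994, against 19.3, 24.5 and 19.996 CPM with DMSO. The treated TTA-1 libraries were all higher than the controls, but the log2 fold change of 0.34 ± 0.14 was not called (adjusted p = 0.205). It was called without TTA-1 DMSO replicate 2, at 0.43 (adjusted p = 0.0355). FAS would then be the one gene of the 9 to rise in TTA-1, in a fit that called 2620 genes there against 556 with all libraries. The responses of the lines differed by -1.39 ± 0.22 (adjusted p = 1.42e-04). FAS shares 380 exonic bases with ACTA2, an actin gene on the other strand with at most 13 counts in a library.

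GDF15, a secreted cytokine of the TGF-beta family that rises in stress, lies on chromosome 19 (18374731 to 18389176) and was the member with the fewest counts in KHM-5M, 52 over the treated and 38 over the control libraries. Its levels there were 1.11, 1.22 and 0.552 CPM with GDC-0994, against 0.395, 0.981 and 0.802 CPM with DMSO, and the log2 fold change was 0.42 ± 0.37 (adjusted p = 0.366). In TTA-1 it had 1.80, 2.74 and 2.56 CPM with GDC-0994, against 5.21, 5.13 and 5.55 CPM with DMSO. Here the groups were apart, and GDF15 fell to 0.447 of the DMSO level, at a log2 fold change of -1.16 ± 0.26 (adjusted p = 0.0192). The call was lost without TTA-1 DMSO replicate 3 (-1.13, adjusted p = 0.0791), GDC-0994 replicate 1 (-1.01, 0.0760) or GDC-0994 replicate 3 (-1.23, 0.0582). The difference between the responses was 1.58 ± 0.45 (adjusted p = 0.0145), and it was lost without KHM-5M GDC-0994 replicate 2 (1.38, adjusted p = 0.0579).

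**Figure D2:**
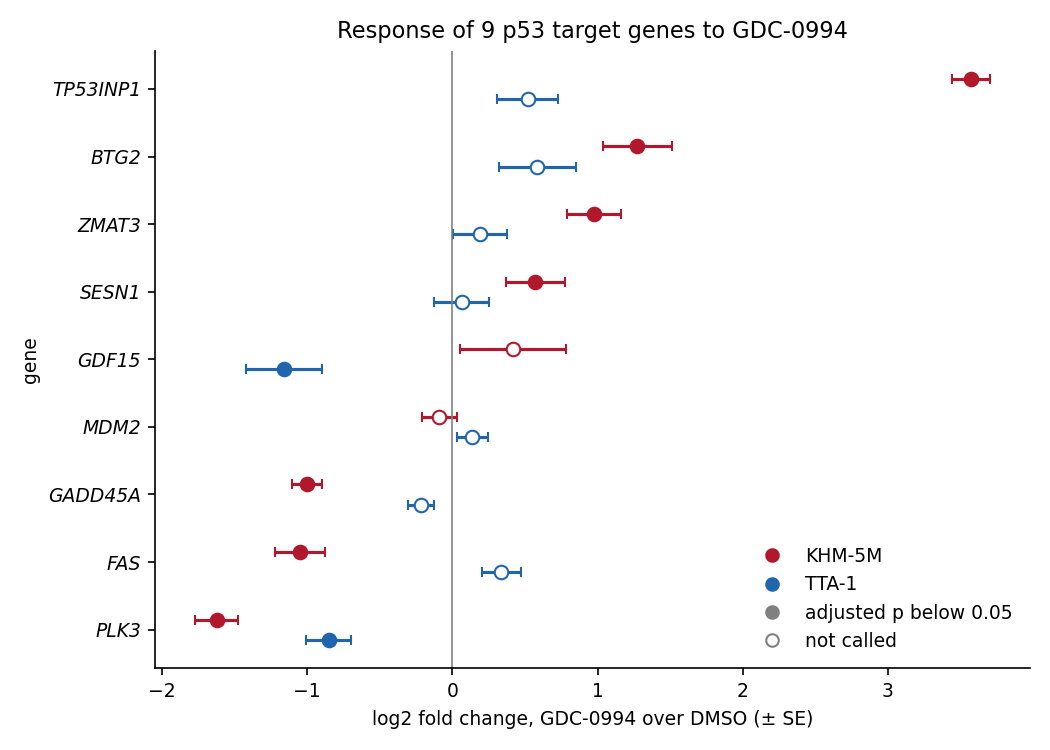
Log2 fold change of GDC-0994 over DMSO for the 9 genes (horizontal axis), in KHM-5M (red) and TTA-1 (blue), with bars of ± 1 SE. Filled points have an edgeR adjusted p below 0.05 and open points do not. In KHM-5M the values run from 3.57 for TP53INP1 to -1.62 for PLK3, and in TTA-1 only PLK3 and GDF15 are filled.

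In TTA-1, then, 0 of the 9 genes rose and 2 fell, PLK3 and GDF15, where 1.18% of all genes tested rose and 2.24% fell. At an unadjusted p below 0.05, 3 were higher (TP53INP1, BTG2 and FAS) and 3 lower (GADD45A with the 2 called). The share of all genes at that unadjusted threshold was not computed, here or for the lists below. Such counts therefore have no background to be set beside. The DESeq2 Wald test called 0 of the 9 higher and 2 lower, beside 316 and 599 of all 16218 genes. The number of the 9 called was 4 without TTA-1 DMSO replicate 2, where 2620 of 16678 genes were called. With all libraries 556 of 16218 genes were called. It was 1 of the 9 without TTA-1 DMSO replicate 3 (311 of 16678 genes), GDC-0994 replicate 1 (442 of 16667) or GDC-0994 replicate 3 (259 of 16669). The median log2 fold change in TTA-1 was 0.14 over the 9 and 0.01 over all genes. With the length and GC trend removed the same number of the 9, 2, was called, beside 1024 of all 16218 genes. The treatment effect differed between the lines for 6 of the 9. The log2 effect in KHM-5M was above that in TTA-1 for TP53INP1, GDF15 and ZMAT3 and below it for FAS, GADD45A and PLK3. Of all genes, 12.3% were called above and 15.6% below. No difference in response between the lines was called for MDM2, BTG2 or SESN1. The lines do not share control libraries in these 2 treatment comparisons, but each difference uses the libraries of both.

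Between the untreated lines, 2 of the 9 were higher in KHM-5M (TP53INP1 and PLK3) and 6 were lower, while 39.6% of all genes were called higher and 36.8% lower. Of the called genes 51.8% were higher in KHM-5M, and 39.4% with the length and GC trend removed. Upper quartile scaling put the median log2 ratio of all genes at 0.13 and removal of the trend at -0.26, against 0.03 with TMM. GDF15 was lowest in KHM-5M relative to TTA-1, at 0.726 ± 0.301 CPM in KHM-5M and 5.30 ± 0.224 CPM in TTA-1 (SD, n = 3 each), a log2 ratio of -2.86 ± 0.30. GADD45A (-1.95 ± 0.10), FAS (-1.62 ± 0.15) and SESN1 (-0.95 ± 0.20) were lower in KHM-5M at adjusted p-values of 3.80e-04 or less in edgeR. ZMAT3 was close to the threshold at -0.44 ± 0.19 (adjusted p = 0.0448). Its call was lost without KHM-5M DMSO replicate 1 (-0.39, 0.109) or 3 (-0.41, 0.102), KHM-5M GDC-0994 replicate 2 (-0.44, 0.0532), or TTA-1 DMSO replicate 2 (-0.19, 0.290) or 3 (-0.48, 0.0507). It was also lost with DESeq2 size factors (-0.42, 0.0512), upper quartile scaling (-0.34, 0.104), library totals (-0.34, 0.126), only the groups compared (-0.43, 0.0662) and limma on log2(FPKM + 1) (-0.23, 0.139). BTG2 was not called (0.13 ± 0.27, adjusted p = 0.672).

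Under GDC-0994, TP53INP1 (4.76 ± 0.15) and BTG2 (0.82 ± 0.23) were higher in KHM-5M than in TTA-1, and FAS (-3.01 ± 0.16), MDM2, GADD45A (-2.74 ± 0.10), GDF15 (-1.28 ± 0.31) and SESN1 (-0.44 ± 0.19, adjusted p = 0.0424) were lower. Of all genes 41.0% were called higher and 39.1% lower. The BTG2 call was lost with the length and GC trend removed (0.46, adjusted p = 0.0804), where the ratio of GDF15 was -2.08. The SESN1 call was lost in 19 of 21 alternative analyses, with values from -0.50 to -0.08. The -0.08 came from the fit with a replicate block, which between the lines compares fitted replicate 1 levels only. Without TTA-1 GDC-0994 replicate 3 the value of SESN1 was -0.15. PLK3 and ZMAT3 (0.35 ± 0.18, adjusted p = 0.0906) were not called. ZMAT3 was called higher in KHM-5M in 8 of the 21 alternatives, among them upper quartile scaling (0.50, adjusted p = 0.0150), library totals (0.48, 0.0267), no filter (0.45, 0.00171) and the trend removed (0.38, 0.0124).

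Per kilobase of exon the order of the 9 genes also differed between the groups. In KHM-5M with GDC-0994 the highest mean levels were 11.2 ± 0.196 FPKM for TP53INP1 and 8.83 ± 0.799 FPKM for GADD45A. In KHM-5M with DMSO, GADD45A (17.4 ± 0.965 FPKM) and PLK3 (4.48 ± 0.287 FPKM) led, and TP53INP1 was at 0.921 ± 0.157 FPKM. In TTA-1, GADD45A and MDM2 led, at 56.7 ± 2.86 and 15.5 ± 0.928 FPKM with GDC-0994 and 66.0 ± 7.49 and 14.1 ± 2.13 FPKM with DMSO (SD, n = 3 throughout). TP53INP1 was the lowest of the 9 in TTA-1, at 0.395 ± 0.0624 FPKM with GDC-0994 and 0.277 ± 0.0441 FPKM with DMSO.

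**Figure D3:**
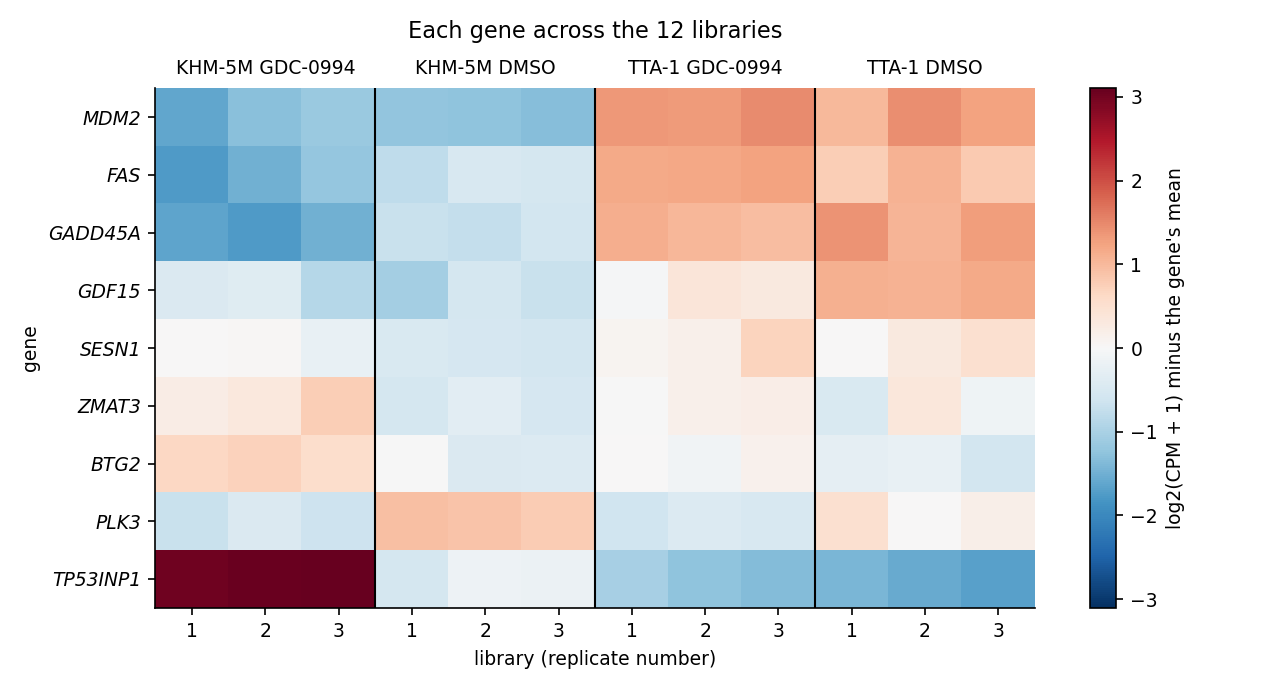
Each gene's log2(CPM + 1) minus its own mean over the 12 libraries (colour, red above and blue below the mean), with libraries in columns and genes in rows. MDM2, FAS and GADD45A share a high level in TTA-1, TP53INP1 is high in the 3 KHM-5M GDC-0994 libraries, and no colour runs through all 9 rows of a treated column.

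Whether the 9 moved together was described library by library. In each of the 3 KHM-5M GDC-0994 libraries, 5 of the 9 genes lay above the mean of the DMSO libraries and 4 below it. In the TTA-1 GDC-0994 libraries, 5, 5 and 6 lay above and 4, 4 and 3 below. The likeness of 2 genes was measured as the root mean square difference of their centred log2(CPM + 1) over the 12 libraries and is given with no test. GADD45A and FAS were closest, at 0.290, followed by BTG2 and ZMAT3 at 0.334 and MDM2 and FAS at 0.399. This measure takes in the level difference between the lines as well as the treatment response. MDM2 and FAS were this close although their log2 fold changes in KHM-5M were -0.09 and -1.05. TP53INP1 was farthest from MDM2 and from GADD45A, at 2.97 each. A gene that varies little sits close to others that vary little, and the variation of each gene about its own mean ranged from 0.377 for SESN1 to 1.83 for TP53INP1.

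Out of 12187 protein-coding genes that averaged 1 CPM or more, those most like MDM2 by this measure were KIF21A (0.0900), a kinesin motor, TRMT10C (0.108), a mitochondrial tRNA methyltransferase, and TOMM70 (0.119), a mitochondrial import receptor. Those most like TP53INP1 were OLFML3 (0.233), a secreted olfactomedin-like protein, SYNPO (0.298), an actin-binding protein, and FHDC1 (0.304), a formin. Each of these differed less from MDM2 or TP53INP1 than any other member of the 9 did. Because they were picked as the closest out of 12187 genes, this comparison cannot show whether the 9 moved together.

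Of 17 genes that control or resemble p53, 16 were tested, and in KHM-5M 3 rose and 6 fell (18.8% and 37.5%, beside 24.6% and 25.1% of all genes). The coactivator EP300 (0.53 ± 0.07), the p53-binding repair protein TP53BP1 (0.44 ± 0.07) and CDKN2A (0.58 ± 0.12), whose ARF product inhibits MDM2, rose. The checkpoint kinases CHEK1 (-1.29 ± 0.10) and CHEK2 (-1.15 ± 0.13), which phosphorylate p53 after DNA damage, the deubiquitinase USP7 (-0.48 ± 0.06) and the p53 relative TP73 (-2.47 ± 0.53, at 0.174 CPM with GDC-0994 and 0.970 CPM with DMSO) fell. The TP73 call was lost with limma on log2(FPKM + 1) (-0.15, adjusted p = 0.0795). DAXX, a histone chaperone, fell by 0.27 ± 0.08. Its call was lost without any one of KHM-5M DMSO replicates 1, 2 and 3 or GDC-0994 replicate 3, with adjusted p-values of 0.0556, 0.0721, 0.0766 and 0.113, and with upper quartile scaling (-0.20, adjusted p = 0.0611). In TTA-1, where 1.18% of all genes rose and 2.24% fell, 0 of the 16 were called by edgeR, with 1 higher and 2 lower at an unadjusted p below 0.05 and 0 by DESeq2.

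Of 45 further genes listed as p53 targets, 42 were tested. In KHM-5M 14 rose, 10 fell and 18 were not called, with a median log2 fold change of 0.003 against 0.02 over all genes. Of those tested, 33.3% rose and 23.8% fell, beside 24.6% and 25.1% of all genes. The 5 risen genes with the smallest p were ABHD4 (1.33 ± 0.08), a lipase of N-acyl phospholipids, the kinase PLK2 (0.81 ± 0.06), the cell cycle inhibitor CDKN1A (1.03 ± 0.10), the ribosomal protein paralog RPS27L (0.50 ± 0.09) and TRIM22 (2.69 ± 0.46), a ubiquitin ligase at only 2.00 CPM with GDC-0994 and 0.305 CPM with DMSO. The 5 fallen genes with the smallest p were E2F7 (-3.08 ± 0.10), a repressor of cell cycle genes, the nuclease AEN (-1.73 ± 0.10), the DNA damage sensor DDB2 (-1.34 ± 0.11), the translesion polymerase POLH (-0.93 ± 0.08) and PIDD1 (-0.81 ± 0.15), which activates caspase-2.

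CDKN1A, which encodes p21 and is the best known arrest gene under p53, was called in opposite directions in the lines. It had 48.0, 49.2 and 43.0 CPM in KHM-5M with GDC-0994, against 22.9, 22.2 and 23.8 CPM with DMSO. In TTA-1 it had 7.47, 8.22 and 6.36 CPM with GDC-0994, against 16.9, 14.9 and 15.5 CPM with DMSO. All treated libraries lay above the controls in KHM-5M and below them in TTA-1, at log2 fold changes of 1.03 ± 0.10 (adjusted p = 2.32e-07) and -1.10 ± 0.12 (adjusted p = 2.77e-05), and the difference was 2.13 ± 0.15 (adjusted p = 1.81e-08). Both calls and the difference kept their direction and their side of the threshold in all 21 alternative analyses. CDKN1A and KITLG, the ligand of the KIT receptor, were the 2 of the 42 called in TTA-1 by edgeR. They were 1 higher and 1 lower (2.38% each, beside 1.18% and 2.24% of all genes). DESeq2 called 3 of the 42 higher and 2 lower in TTA-1, beside 316 and 599 of all 16218 genes. KITLG rose there by 0.63 ± 0.15 (adjusted p = 0.0236), and its call was lost without TTA-1 DMSO replicate 1 (0.47, 0.0604) or 3 (0.57, 0.103), or GDC-0994 replicate 2 (0.63, 0.0634) or 3 (0.57, 0.119), and with only the groups compared (0.62, 0.0619). At an unadjusted p below 0.05, 3 of the 42 were higher and 3 lower in TTA-1. EDA2R, 1 of the 42, had no count in any TTA-1 library.

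**Figure D4:**
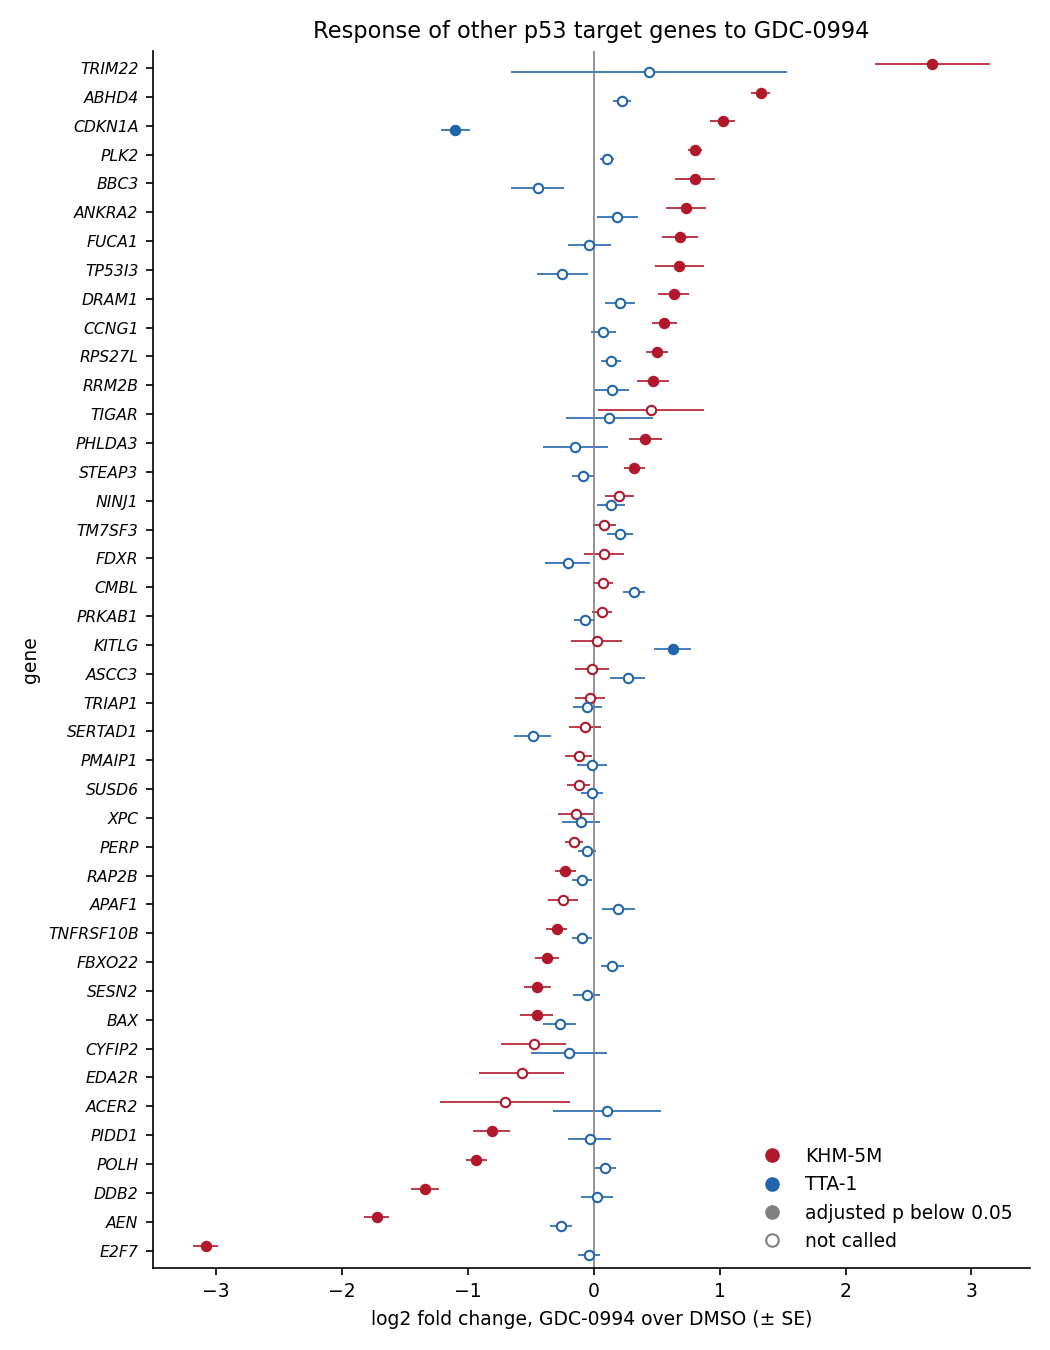
Log2 fold change of GDC-0994 over DMSO for the 42 tested genes of the list of other p53 targets (horizontal axis), in KHM-5M (red) and TTA-1 (blue), with bars of ± 1 SE, ordered by the value in KHM-5M. Filled points have an edgeR adjusted p below 0.05. In KHM-5M the values run from 2.69 for TRIM22 to -3.08 for E2F7, and in TTA-1 only CDKN1A (-1.10) and KITLG (0.63) are filled. EDA2R has no TTA-1 point, because it had no count there.

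Of 8 tested paralogs of the 9 genes, 3 rose and 3 fell in KHM-5M (37.5% each, beside 24.6% and 25.1% of all genes). TP53INP2, the autophagy paralog of TP53INP1, rose by 1.33 ± 0.10, and SESN3 by 1.42 ± 0.29, as TP53INP1 and SESN1 had done. GADD45B rose by 0.69 ± 0.11, where GADD45A fell. BTG3 fell by 1.26 ± 0.14, where BTG2 rose. The mitotic kinases PLK1 (-2.28 ± 0.10) and PLK4 (-2.39 ± 0.17) fell, like PLK3. In TTA-1, where 1.18% of all genes rose and 2.24% fell, 0 of the 8 were called by edgeR. At an unadjusted p below 0.05, 0 were higher and 2 lower, and DESeq2 called 1 lower.

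Of 7 genes of the pathway downstream of FAS and its ligand, 6 were tested, and in KHM-5M 2 rose and 1 fell (33.3% and 16.7%, beside 24.6% and 25.1% of all genes). Where FAS fell, CFLAR, an inhibitor of caspase activation at the receptor, rose by 0.36 ± 0.08 and the initiator caspase CASP10 by 0.64 ± 0.17. FADD, the adaptor between receptor and caspase, fell by 0.47 ± 0.14 on the log2 scale (adjusted p = 0.0103). The FADD call was lost without KHM-5M DMSO replicate 2 (-0.39, 0.0660), GDC-0994 replicate 2 (-0.41, 0.0560) or GDC-0994 replicate 3 (-0.35, 0.0779). The remaining 3 were not called. In TTA-1, where 1.18% of all genes rose and 2.24% fell, 0 of the 6 were called by edgeR. At an unadjusted p below 0.05, 0 were higher and 1 lower, and DESeq2 called 0.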

How the data were processed

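Per the labels, polyadenylated RNA was sequenced without a step that keeps the strand. The submitters' processing notes name GRCh38, HISAT2 2.0.5, featureCounts 1.5.0-p3 and CASAVA. The authors deposited raw counts per gene and an FPKM table. Tested on the values, each deposited FPKM equals the count over exon length and a library size of 0.975 to 1.08 times the total count. All 58735 genes had the coordinates of GENCODE 29, and 26222 had no count.

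Counts were fitted with edgeR 4.0.16 in R 4.3.3 (filterByExpr, minimum count 10 and minimum total 15; TMM; quasi-likelihood, 1 model of 12 libraries, 8 residual degrees of freedom). The p-values were adjusted by Benjamini-Hochberg over 16218 genes, and genes were called, or said to rise or fall, at an adjusted p below 0.05. SE is the log2 fold change over the square root of F. On simulated data for KHM-5M, 22 of 67 genes changed 1.5-fold, 63 of 67 changed 2-fold and 66 of 66 changed 4-fold were recovered. The changed genes were taken above a floor on mean count that GDF15 and BTG2 do not reach. Every gene had the same dispersion, with no difference between the lines and no GC trend. These shares therefore do not hold for genes with few counts or for the spread of the real libraries. Alternatives used limma 3.58.1 and DESeq2 1.42.0. Replicate pairs differed by more than sampling noise.

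The 9 genes and all lists were chosen with earlier results of these data known. From each further list, up to 5 risen and 5 fallen genes with the smallest p were named in each line. One gene of a list is not reported here. The 3 KHM-5M GDC-0994 samples share 1 description, so their columns were matched through the number in the sample title.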

Additional observations from a re-analysis of the deposited data

Results flagged for a closer look

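The response to GDC-0994 differed between KHM-5M and TTA-1 for 6 of the 9 genes, by the test of the difference itself in edgeR. As the log2 effect in KHM-5M minus that in TTA-1, it was 3.05 for TP53INP1, 1.58 for GDF15 and 0.79 for ZMAT3. It was -1.39 for FAS, -0.79 for GADD45A and -0.77 for PLK3. In TP53INP1, ZMAT3, GADD45A and PLK3 the 2 effects had the same sign, with only PLK3 called in both lines. In FAS and GDF15 the effects had opposite signs, though that of FAS in TTA-1 and that of GDF15 in KHM-5M were not called. Groups of 3 libraries are too small for the test of single libraries that stand apart.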

How the results depend on the processing

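Each of the 45 values (9 genes in 5 comparisons) was recomputed under 21 alternatives, 1 of them (length and GC trend removed) chosen after seeing the data. Of 945 values, 872 kept their direction and side of the threshold, 46 lost a call, 15 gained one and 12 turned round. In 25 of the 45, direction and side of the threshold were kept under all 21. These totals include the replicate block, which between the lines compares fitted replicate 1 levels only.

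The number of genes called in TTA-1 was 556, and 915 with the DESeq2 Wald test, 1206 with no filter, 206 with only the groups compared, 1024 with the length and GC trend removed, and 259 to 2620 leaving out 1 library. Of the 9 genes, 1 to 4 were called there leaving out 1 library.

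The values that turned round were those of genes that were not called, except PLK3 between the lines in DMSO, which was -0.10 with the trend removed. BTG2 in that comparison was -0.28 with the trend removed and ran from -0.14 (without KHM-5M DMSO replicate 1) to 0.26 leaving out 1 library. PLK3 between the lines under GDC-0994 was 0.071 with upper quartile scaling, 0.046 with library totals and 0.012 with no filter. MDM2 in KHM-5M ran from -0.16 to 0.034 leaving out 1 library, the higher value without GDC-0994 replicate 1. SESN1 in TTA-1 ran from -0.19 (without GDC-0994 replicate 3) to 0.19 leaving out 1 library, and was -0.040 with the trend removed. ZMAT3 in TTA-1 ran from -0.00071 (without DMSO replicate 1) to 0.43. The cause was not tested.

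The correlation of same-numbered libraries' deviations ranged from -0.112 to 0.256, and that of libraries with unlike numbers from -0.374 to 0.381. With 3 libraries in a group and GC trends in single libraries, these values cannot show whether replicate numbers pair the libraries. With a replicate block, 7849 genes were called in KHM-5M and 529 in TTA-1. Within each line and for the difference between the responses, the block ended no call among the 9. The block was coded within each line, so between the lines it compares fitted replicate 1 levels and not means over replicates. There ZMAT3 in DMSO (-0.30) and SESN1 under GDC-0994 (-0.08) were not called. These values cannot show what blocking does to a ratio of group means. Fold changes on log2(FPKM + 1) are smaller for low genes by construction. Counting precision limits GDF15, BTG2 and, in TTA-1, TP53INP1, which had few counts.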
